A study of Mus musculus with 5 samples.

Results

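The members described here are the nuclear genes named as subunits of respiratory complex I, the NADH dehydrogenase at the entry of the mitochondrial respiratory chain. They were chosen by symbol alone, as Ndufa, Ndufb, Ndufc, Ndufs, Ndufv or Ndufab followed by a number and nothing else, so the assembly factors of the Ndufaf series were left out. This gave 37 of the 17228 genes in the deposited table, on 15 chromosomes, and all 37 passed the filter on low counts, which 12540 genes passed. RNA from the hearts of mice aged 6 months was enriched for poly-A and sequenced in 5 libraries. The WT group held 2 nondiabetic C57BL mice, 1 female and 1 male. The db/db group held 3 diabetic mice of the genotype KsJ-Lepr db/Lepr db, with 2 females and 1 male. These mice carry the db allele of the leptin receptor gene on both chromosomes in all cells, eat more and become obese and diabetic.

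The strain label was C57BL for all 5 mice, but the KsJ background was named for the db/db genotype alone, so genotype and background cannot be told apart. The growth protocol spoke of male mice, whereas the labels of 3 libraries said female. Whether the 5 libraries stem from 5 different mice is not said in the labels, so each p-value sets a difference against the spread of these libraries, which may be partly technical. The libraries held 8356099 to 10381326 counts. Lepr, the gene with the db allele, had 37 and 14 counts in WT and 3, 7 and 5 in db/db (log2 fold change -2.21, SE 0.56, edgeR adjusted p = 0.106). The counts were low, all 3 db/db values lay below both WT values, and the total over all transcripts does not read the mutation itself.

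Complex I passes electrons from NADH to ubiquinone and pumps protons across the inner mitochondrial membrane, and the heart depends on it because most cardiac ATP comes from oxidation. It has a matrix arm, where a flavin and a chain of iron-sulfur clusters carry the electrons, and a membrane arm, where the protons are moved. The catalytic core of the matrix arm is encoded in the nucleus, the core of the membrane arm by the mitochondrial genome (not analysed here), and the accessory subunits around both arms are nuclear.

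Since most of the fold changes had the same sign, the promoters were read for short motifs of the factors known to act on nuclear genes of the respiratory chain. RefSeq start sites gave a window of 250 bases before to 50 bases after the start (GRCm38.p6) for 33 of the 37 genes, and Ndufa2, Ndufb9 and Ndufs1 were among those without a window. The 250 bases before the start are printed 5′ to 3′ for Ndufs5, Ndufa11 and Ndufc2. Ndufs5 had the largest fold change of all 37, and Ndufc2 was near the bottom. Ndufa11 passed the threshold with Ndufs5 after the length correction with sex, but not when given its GENCODE length, as shown further on. In the order printed, the stretches lie at chr4:123718187-123718436 on the minus strand, at chr17:56717512-56717761 on the plus strand and at chr7:97399753-97400002 on the plus strand. The capitals mark the match to the motif of nuclear respiratory factor NRF1, searched as GCGCA, any base and GCGC without gaps.
Ndufs5: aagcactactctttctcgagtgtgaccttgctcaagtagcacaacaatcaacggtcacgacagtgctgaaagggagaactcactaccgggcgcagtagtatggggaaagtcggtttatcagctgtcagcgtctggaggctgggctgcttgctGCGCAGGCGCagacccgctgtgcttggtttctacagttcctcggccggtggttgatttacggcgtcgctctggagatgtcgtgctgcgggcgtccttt
Ndufa11: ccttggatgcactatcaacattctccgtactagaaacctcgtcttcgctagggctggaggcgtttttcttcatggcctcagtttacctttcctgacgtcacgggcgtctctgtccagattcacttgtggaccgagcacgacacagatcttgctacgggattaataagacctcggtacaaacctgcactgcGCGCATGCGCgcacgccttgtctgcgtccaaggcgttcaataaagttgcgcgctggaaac
Ndufc2: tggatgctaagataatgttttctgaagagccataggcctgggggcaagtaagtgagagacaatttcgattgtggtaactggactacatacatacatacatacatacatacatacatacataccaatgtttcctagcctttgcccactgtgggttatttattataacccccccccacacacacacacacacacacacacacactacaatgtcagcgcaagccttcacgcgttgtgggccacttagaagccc

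The match began 98 bases before the start in Ndufs5 and 60 bases before it in Ndufa11, and the Ndufc2 stretch held none. Over whole windows and both strands, the NRF1 motif was found in 7 of 33 windows (21.2%), those of Ndufa5, Ndufa6, Ndufa8, Ndufa11, Ndufb4, Ndufs5 and Ndufs6. The same motif was in 4.78% of all 27025 windows and in 1041 of the 10002 windows of tested genes. The YY1 motif AAGATGG was in 7 windows (21.2%), against 6.47% of all windows and 7.12% of those of tested genes. The ETS motif CCGGAAG was in 4 windows (12.1%), against 9.14% of all and 18.1% of tested genes. The motif TCAAGGTCA of the estrogen-related receptors was in 0 of 33 windows, in 0.411% of all windows and in 0.27% of those of tested genes, and the TATA box TATAAA was in 4 windows (12.1%), in 14.1% of all and in 7.11% of those of tested genes. No window held both the NRF1 and the ETS motif. The log2 fold changes of db/db over WT in the 7 genes with the NRF1 motif ran from 0.32 (Ndufb4, with 3 matches) to 0.79 (Ndufs5). Genes without it included Ndufa3 (0.60) and Ndufb11 (0.51) as well as Ndufc2 (0.01). A relation between motif and fold change was not tested. A match is a description of these letters and does not show that a factor binds there.

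The complex I genes were expressed at high levels in every library. The TPM values (transcript abundance divided by gene length and set to the same total in each library), which allow genes to be compared, were summed over the 37 genes. The sum took 4.82% and 5.24% of all TPM in the WT female and the WT male. It took 5.39% and 5.42% in the db/db females and 6.02% in the db/db male. All 3 db/db libraries thus lay above both WT libraries, with a mean of 5.61% ± 0.354 (SD, n = 3) against 5.03% ± 0.301 (SD, n = 2). Of the read counts, the genes took 2.13% in the WT female (95% Wilson interval 2.12 to 2.13, counting error only), the lowest share, and 2.96% in the db/db male (2.95 to 2.97), the highest.

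The order of the genes by level was nearly fixed. Between pairs of libraries, Spearman's rho of the TPM values over the 37 genes ran from 0.937 to 0.992, given as a description because the libraries share each gene's length. The highest level was that of Ndufa4 at 4042 and 4679 TPM in WT and 4381, 4657 and 5165 TPM in db/db, in the order WT female, WT male, db/db female 1, db/db female 2 and db/db male, which is kept throughout. Ndufa4 is a small protein long counted in complex I and now assigned to complex IV. Ndufa3, a small membrane-spanning subunit, followed at 2699, 3118, 3495, 3212 and 4030 TPM. Ndufb9, a membrane arm subunit, had 2696, 2956, 3022, 3021 and 4008 TPM. These 2 genes were close neighbours, with overlapping ranges of levels, and Ndufa4 lay above both in every library.

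At the low end, Ndufs4, which takes part in a late step of assembly of the matrix arm, had 195, 220, 229, 231 and 199 TPM. The core subunit Ndufs1 had 308, 257, 208, 275 and 173 TPM, and Ndufb6 of the membrane arm had 437, 463, 467, 459 and 402 TPM. Ndufs1 and Ndufs4 overlapped in level, and Ndufb6 lay above both in every library. In Ndufs1 and Ndufb6 the db/db male was the lowest library, whereas in Ndufa4, Ndufa3 and Ndufb9 it was the highest. The low TPM of Ndufs1 goes with a long transcript, because its read counts relative to the library size, shown further on, were not among the lowest.

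**Figure D1:**
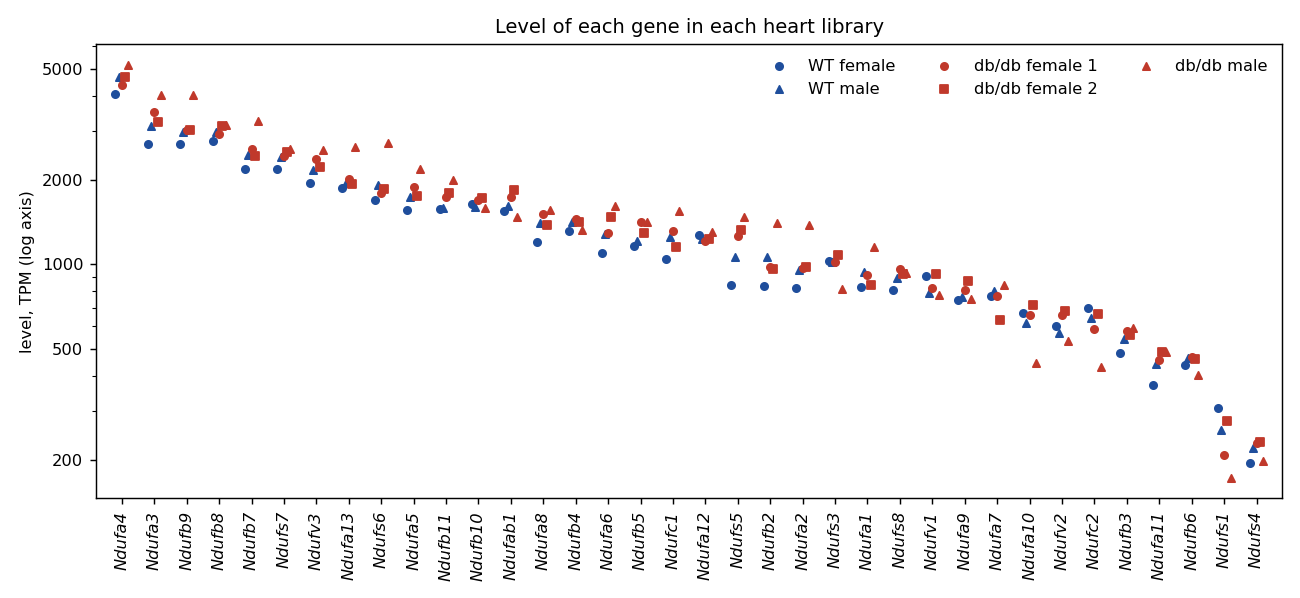
Level of 36 of the 37 genes in each of the 5 heart libraries, in TPM on a log axis, with genes ordered by their mean. Points are single libraries, blue for WT and red for db/db. Ndufa4 is at the top with 4042 to 5165 TPM and Ndufs4 at the bottom with 195 to 231 TPM, and the spread between genes is far wider than that between libraries.

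The db/db and WT groups were compared to see how the diabetic heart differs in these transcripts. In edgeR's quasi-likelihood test, 0 of 37 genes passed at a Benjamini-Hochberg adjusted p under 0.05, while 1.03% of all tested genes did (129 genes, 84 higher and 45 lower). At an unadjusted p under 0.05, 21 of 37 had higher values in db/db and 0 lower, against 6.87% of all tested genes that were higher at this level. DESeq2 called 1 of 37 genes (1.92% of all genes), and limma-voom called 0 of 37 (0.949% of all genes). In the authors' deposited table, 1 of 37 genes had a q under 0.05 (1.35% of all listed genes) and 28 of 37 had a p under 0.05 (7.92% of all listed genes).

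The log2 fold changes nonetheless pointed mostly one way. With trimmed mean (TMM) scaling, 36 of 37 were above 0, against 49.0% of all tested genes. The number above 0 was 35 with library totals, 34 on log2(FPKM + 1) and 29 on log2(TPM + 1). The median over the 37 genes was 0.42 (range -0.09 to 0.79), beside -0.01 over all tested genes. Other scalings shifted the median of all genes to -0.19 (library totals), -0.15 (log2(FPKM + 1)) and -0.24 (log2(TPM + 1)). Relative to the median of all genes, the complex I median was higher by 0.43 with TMM, by 0.43 with library totals and by 0.37 on log2(TPM + 1).

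In CPM (read counts relative to the TMM-scaled library size), the 3 db/db libraries lay above both WT libraries for 28 of 37 genes, against 15.1% of all tested genes, and below both for 0 of 37, against 16.5%. In TPM the groups did not overlap for 13 of 37 genes, all higher, against 3.94% of all tested genes higher and 36.3% lower. The 9 genes whose CPM overlapped were Ndufa1, Ndufa4, Ndufa7, Ndufa10, Ndufb2, Ndufc1, Ndufc2, Ndufs1 and Ndufs6. In a bulk sample, fewer cells of a type and less RNA per cell cannot be told apart.

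The libraries did not split by genotype alone. On the log2 CPM scale, the median of the 37 genes relative to the WT mean was -0.19 in the WT female, 0.19 in the WT male, 0.29 and 0.30 in the db/db females and 0.64 in the db/db male. The WT male thus lay closer to the db/db females than to the WT female. The WT female was the lowest library for 35 of 37 genes, and the db/db male was the highest for 31 of 37, with db/db female 2 highest for the other 6.

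**Figure D2:**
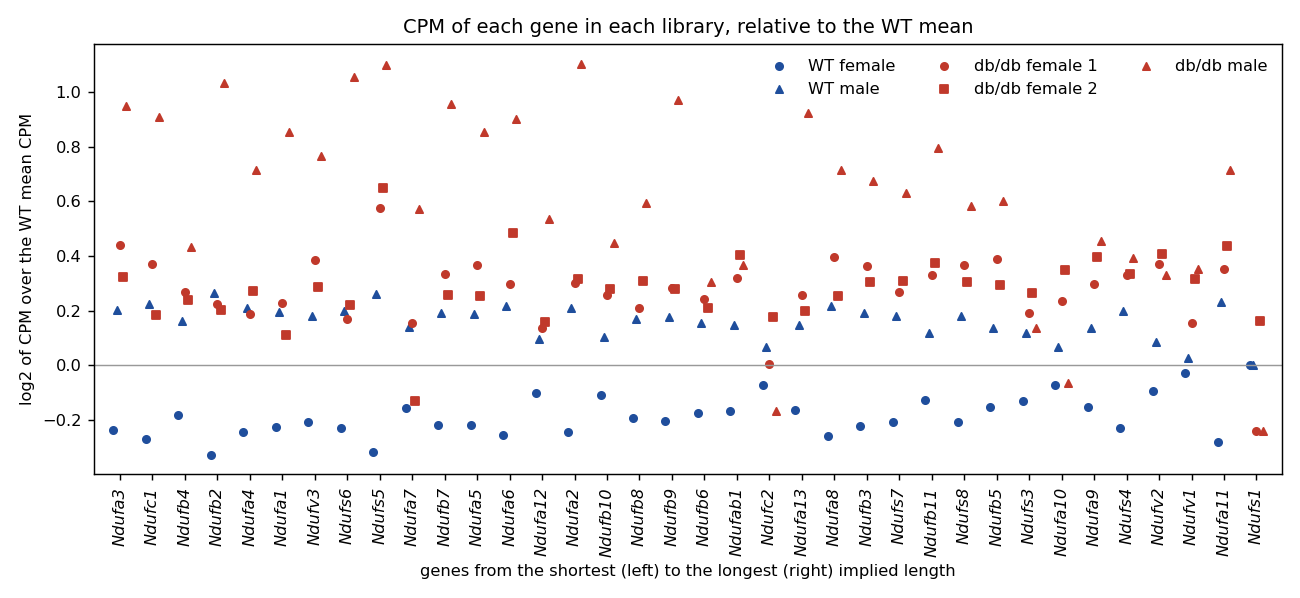
CPM of 36 of the 37 genes in each library as the log2 of its ratio to the WT mean, with genes ordered from the shortest implied length on the left to the longest on the right. Blue points are WT and red points db/db, and triangles are males. The WT female is lowest for most genes (35 of all 37), the db/db male is highest for most (31 of all 37), above all for the short ones, and the WT male and the db/db females lie close together.

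Ndufs5 stood at the top of the list. It encodes a small accessory subunit held by disulfide bonds on the side of the membrane arm that faces the intermembrane space (chr4:123712710-123718186, minus strand, GRCm38.p6). It had 224 and 335 CPM in WT and 416, 439 and 598 CPM in db/db. All 3 db/db libraries were above both WT libraries, and the WT male lay between the WT female and the db/db females. The means were 280 ± 77.9 CPM (SD, n = 2) and 484 ± 99.2 CPM (SD, n = 3). The log2 fold change was 0.79 (SE 0.21) and missed the threshold in edgeR (adjusted p = 0.134). It passed in DESeq2 (adjusted p = 0.0135), in edgeR with low counts kept (adjusted p = 0.0364; 1 of 37 genes, against 1.56% of all genes) and in the authors' deposited table (log2 fold change 0.80, q = 0.0124).

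The levels were also read against the complex itself. This takes the same value off all genes of a library, so the genes keep the order of their differences in log2 CPM. Ndufs5 thus stays first by construction. Relative to the median complex I gene of the same library, its log2 CPM was -1.14 and -0.86 in WT and -0.72, -0.59 and -0.45 in db/db. The groups did not overlap, with a difference of 0.41 between the means. On this relative scale, 2 of 37 genes had all db/db libraries higher (Ndufs5 and Ndufb5) and 2 of 37 had all lower (Ndufc2 and Ndufb6). Over all tested genes these shares were 2.14% higher and 50.4% lower. Ndufb5 differed by 0.04 and Ndufb6 by -0.13 on this scale, small beside Ndufs5 and beside Ndufc2 at -0.38. Ndufs1 had the largest decrease, -0.50, with overlapping groups, and its place at the end is likewise that on log2 CPM.

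The core subunits of the matrix arm, which bind NADH, the flavin, the iron-sulfur clusters and ubiquinone, had a median log2 fold change of 0.28, and 0 of 7 passed in edgeR. Ndufv1, which binds NADH and the flavin, had 864 and 899 CPM in WT and 983, 1098 and 1127 CPM in db/db (log2 fold change 0.28). Its partner Ndufv2, which carries an iron-sulfur cluster, had 548 and 621 against 755, 776 and 735 CPM (0.37). In both genes all db/db libraries lay above both WT libraries, and the WT pair was close.

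Ndufs7, which holds the last iron-sulfur cluster before ubiquinone, had 924 and 1209 CPM in WT and 1286, 1322 and 1652 CPM in db/db (0.41). The groups did not overlap, and the db/db male was the highest library. Ndufs8, another carrier of iron-sulfur clusters, had 362 and 473 against 539, 516 and 625 CPM (0.42). Ndufs3, a core subunit without an iron-sulfur cluster, had 550 and 653 against 687, 723 and 661 CPM (0.20). Both had non-overlapping groups, by a margin of only a few CPM for Ndufs3, whose sign turned on the TPM scale (-0.09).

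Ndufs1, the largest core subunit, which holds several iron-sulfur clusters (chr1:63143592-63176822, minus strand), departed from the rest. It had 500 CPM in each WT library and 423, 560 and 423 CPM in db/db. The groups overlapped, with db/db female 2 above and the other db/db libraries below WT. Its log2 fold change was -0.09 (SE 0.17, edgeR adjusted p = 0.852), the only value below 0 among the 37.

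The 9 accessory subunits of the matrix arm had a median log2 fold change of 0.49 (range 0.23 to 0.62), and 0 of 9 passed. Ndufa6, a small protein of the LYR family that docks the acyl carrier protein (chr15:82350139-82354291, minus strand), had 327 and 455 CPM in WT and 480, 547 and 731 CPM in db/db. The groups did not overlap, with the WT male just below db/db female 1 (0.58, SE 0.21, edgeR adjusted p = 0.276). Ndufa2, a subunit with a thioredoxin fold (chr18:36742332-36744587, minus strand), had 268 and 366 CPM against 391, 394 and 681 CPM. Here the db/db male stood far above the rest and the db/db females lay just above the WT male (0.62, SE 0.25, edgeR adjusted p = 0.338). Ndufs4 had 178 and 239 against 262, 262 and 273 CPM (0.35), and Ndufs6, a zinc-binding subunit, had 447 and 600 against 589, 610 and 1086 CPM (0.54). The groups did not overlap for Ndufs4 and overlapped for Ndufs6.

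The 19 accessory subunits of the membrane arm had a median log2 fold change of 0.47 (range 0.01 to 0.79), and 0 of 19 passed. Ndufa3 (chr7:3617373-3620161, plus strand) had 447 and 606 CPM in WT and 716, 659 and 1017 CPM in db/db (0.60, SE 0.21, edgeR adjusted p = 0.276). Ndufb11, an X-linked subunit (chrX:20615326-20617833, minus strand), had 691 and 820 against 949, 979 and 1310 CPM (0.51, SE 0.18, edgeR adjusted p = 0.273). Ndufb5 (chr3:32737063-32751559, plus strand) had 546 and 668 against 796, 745 and 920 CPM (0.43, SE 0.17, edgeR adjusted p = 0.311). In all 3 genes the groups did not overlap and the db/db male was the highest library. Ndufb9 had 957 and 1246 against 1339, 1335 and 2158 CPM (0.55), and Ndufb6 had 157 and 198 against 210, 206 and 219 CPM (0.25). Neither overlapped, and the db/db male was far above the db/db females for Ndufb9 alone of these 2.

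Ndufa11, a membrane subunit near the junction of the arms (chr17:56717762-56724248, plus strand), had 599 and 854 CPM in WT and 926, 984 and 1193 CPM in db/db. The groups did not overlap (0.51, SE 0.19, edgeR adjusted p = 0.299). The length that its counts and FPKM imply was 2577 bases, whereas its longest GENCODE M21 transcript had 918 bases, so its TPM and its length correction carry this doubt.

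At the other end, Ndufc2, a membrane arm subunit (chr7:97400003-97409533, plus strand), had 260 and 286 CPM in WT and 274, 309 and 244 CPM in db/db. The groups overlapped fully (log2 fold change 0.01, SE 0.15, edgeR adjusted p = 0.984), and the sign turned with library totals (-0.16) and on the TPM scale (-0.28). Ndufa10, which resembles nucleoside kinases, had 475 and 524 against 588, 636 and 478 CPM. The db/db females were above both WT libraries and the db/db male was level with the WT female (0.18, SE 0.16, edgeR adjusted p = 0.666), and the sign turned on the TPM scale (-0.11).

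Of the remaining members, Ndufab1, the mitochondrial acyl carrier protein found in both arms, had a log2 fold change of 0.36. Ndufa4 of complex IV had 1032 and 1412 CPM in WT and 1391, 1477 and 2003 CPM in db/db (0.41), with db/db female 1 just below the WT male. Ndufb4 is uncertain, because its counts were fractional in every library and a near-identical gene, Ndufb4c, can share its reads. Ndufb4 had a log2 fold change of 0.32 and Ndufb4c one of -0.003, neither of which passed in edgeR (adjusted p = 0.421 and 0.996). Ndufa4l2, a relative of Ndufa4, had a log2 fold change of 0.09 (edgeR adjusted p = 0.828). The sources used here do not give whether counting used the strand, so reads of genes that overlap on opposite strands cannot be told apart.

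**Figure D3:**
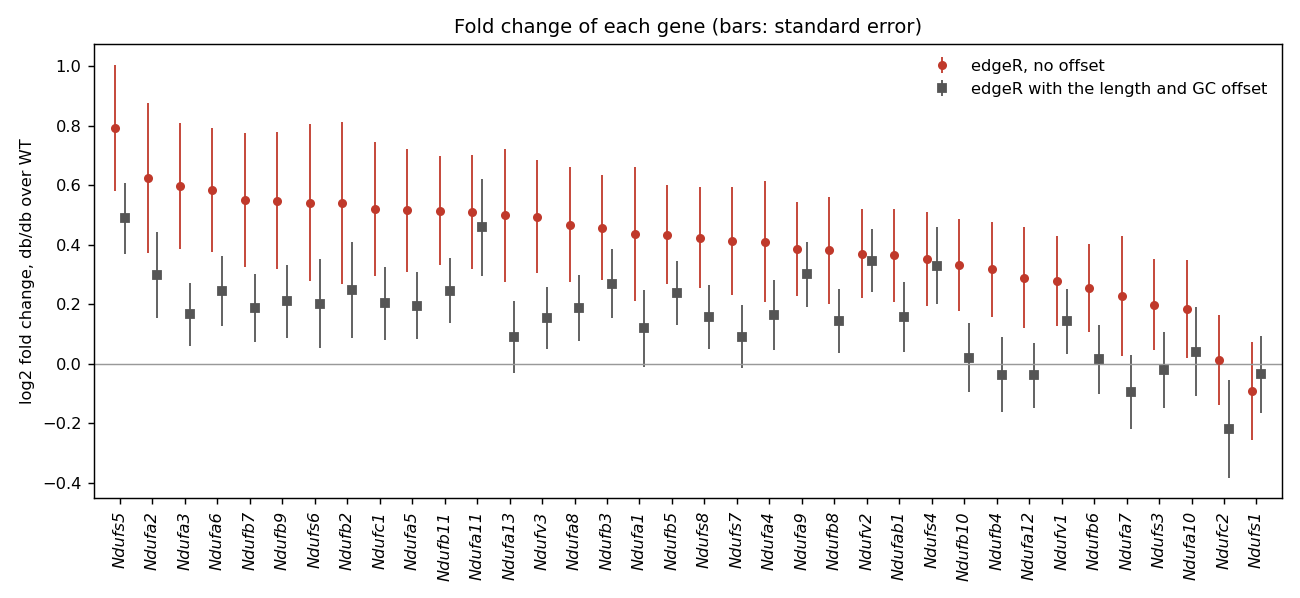
Log2 fold change of db/db over WT for 36 of the 37 genes from edgeR (red, no offset) and from edgeR corrected in each library for its trend over length and GC content (grey), in order of the red values. Bars are standard errors. The red values run from 0.79 for Ndufs5 to -0.09 for Ndufs1, and the grey values lie lower for most genes, with a median of 0.17 over all 37.

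The genes share a property that the choice by symbol did not use, which is a short transcript. The median implied length was 572 bases, against 2764 bases over all tested genes, and 29 of 37 fell into the shortest of 10 length bins (1050 genes of 121 to 1075 bases). In that bin the median log2 fold change over all genes was 0.24 and 83.3% were above 0, and the 29 complex I genes in it had a median of 0.46. The WT female lay 0.28 below the mean of the 5 libraries in this bin (median of log2 CPM, value -0.28) and the db/db male 0.28 above. The other 3 libraries lay between -0.02 and 0.01. The libraries at the 2 ends of the complex I values were also those furthest from the mean in this bin, which includes the 29 complex I genes. The part of length in the complex I values was not tested.

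Within the 37 genes, the 21 genes under 600 bases had a median log2 fold change of 0.49, the 8 genes of 600 to 1000 bases 0.45 and the 8 genes of 1000 bases or more 0.32. Across these genes the log2 fold change and log2 length had a Pearson r of -0.48 (n = 37 genes of the same libraries, which are not independent replicates). The core subunits were the longest group, with a median of 1454 bases, against 472 bases for the accessory subunits of the matrix arm and 564 bases for those of the membrane arm. The core group thus had both the longest transcripts and the lowest median fold change of the 3 groups.

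With an offset that takes out the trend of each library over length and GC content, the median log2 fold change of the 37 genes was 0.17, beside -0.01 over all genes. It was above 0 for 31 of 37 genes, against 48.8% of all, and 0 of 37 passed in edgeR (1.20% of all genes). At an unadjusted p under 0.05, 8 of 37 had higher values, against 12.5% of all genes in either direction. The 5 library medians relative to the WT mean were then -0.02, 0.02, 0.10, 0.15 and 0.25. The order of the libraries was kept at a smaller size, and r with length was 0.16.

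When the WT female and the male of the db/db group were both left out, the WT male was set against the db/db females, which also differ in sex, and the spread came from these females alone. The median of the 37 genes was 0.11, beside 0.00 over all genes, 32 of 37 were above 0 (50.5% of all genes), and 0 of 37 passed (3.38% of all genes). In the shortest length bin the 29 genes had a median of 0.11 and all genes one of 0.01. Ndufs5 kept the largest value, 0.35 (edgeR adjusted p = 0.187). The median difference between db/db and WT was thus 0.42 with all libraries and 0.11 without these 2.

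**Figure D4:**
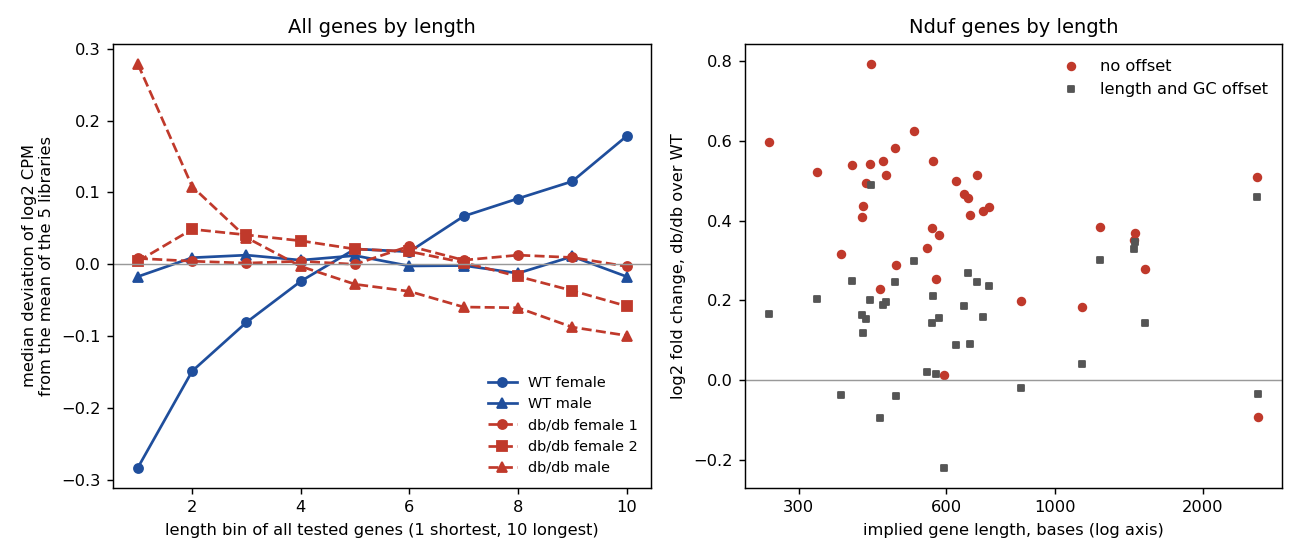
Left, the median deviation of log2 CPM from the mean of the 5 libraries for all tested genes in 10 bins of implied length, from the shortest (1) to the longest (10), with 1 line per library. Right, log2 fold change of db/db over WT against implied length in bases (log axis) for 36 of the 37 genes, without (red) and with (grey) the length and GC offset. The WT female starts at -0.28 and the db/db male at 0.28 in the shortest bin, while the other 3 libraries stay within 0.06 of 0 in every bin.

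Sex was not balanced between the groups. With sex as a covariate in edgeR, 24 of 37 genes passed, all higher in db/db, against 4.62% of all tested genes that were called higher (579 genes). This model, also used below for males against females, left 2 residual degrees of freedom. Only the db/db females share both genotype and sex, so its small SEs and p-values rest on few libraries. The SE of Ndufs5 was 0.21 without sex in the model. The 24 comprised 2 of 7 core subunits (Ndufs7 and Ndufs8), 6 of 9 matrix accessory subunits, 15 of 19 membrane accessory subunits and Ndufa4. In log2 terms Ndufs5 rose by 0.89 (SE 0.11, adjusted p = 0.000476), Ndufa2 by 0.70 (SE 0.11, adjusted p = 0.00332), Ndufa3 by 0.67 (SE 0.11, adjusted p = 0.00282) and Ndufa6 by 0.66 (SE 0.11, adjusted p = 0.00335) in this edgeR fit. In females alone, where the spread came from the db/db females alone and was applied to the WT female as well, 27 of 37 passed, against 5% of all genes called higher. With both sex and the length offset, 2 of 37 passed, against 2.08% of all genes called higher. These were Ndufs5 (0.52, edgeR adjusted p = 0.0134) and Ndufa11 (0.54, adjusted p = 0.0112). With Ndufa11 at its GENCODE length, its log2 fold change was 0.29 and it no longer passed (edgeR adjusted p = 0.146), which left Ndufs5 (1 of 37, against 2.07% of all genes called higher).

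The comparison of males with females, in a model with genotype, gave 13 of 37 genes called higher in males and 0 lower, against 1.23% of all tested genes called higher and 0.175% lower. The median log2 difference over the 37 genes was 0.36, beside -0.01 over all genes. Ndufb2 of the membrane arm had 201 and 304 CPM in the WT female and male, and 295, 290 and 517 CPM in the db/db females and male. The male exceeded the females within each genotype, by a log2 difference of 0.72 (SE 0.11, edgeR adjusted p = 0.00918). Ndufa2 (0.65, SE 0.11, edgeR adjusted p = 0.0190) and Ndufs6 (0.67, SE 0.11, edgeR adjusted p = 0.0190) followed. The median was 0.34 without the WT female and 0.38 without the db/db male. The former rests on the db/db male against the db/db females, the latter on the WT male against the WT female. Each fit thus keeps either the db/db male or the WT female, so sex and these single libraries cannot be told apart. With the length offset 0 of 37 passed (0.263% of all genes), and r between the sex difference and log2 length over the 37 genes was -0.62 without and -0.05 with the offset. Without db/db female 1, 4 of 37 passed, against 0.693% of all genes, and without db/db female 2, 1 of 37 did, against 0.242%. Leaving out any other library left a single WT library or a single male, so no conclusion is drawn from those counts.

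The difference of the db/db effect between the sexes was tested as an interaction, with 1 residual degree of freedom from the db/db females. In edgeR 0 of 37 genes passed, against 1.16% of all tested genes, with 2 of 37 at an unadjusted p under 0.05 (9.87% of all genes). DESeq2 called 0 of 37 as well (0.0319% of all genes), with 1 at an unadjusted p under 0.05. Ndufa10 had the smallest p, with a db/db effect lower in males by a log2 difference of -0.50 (SE 0.21, edgeR adjusted p = 0.332). Ndufs6 had a difference of 0.43 in the other direction (SE 0.21, edgeR adjusted p = 0.452).

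Other genes of the same pathway were read from lists chosen by function. Of 17 tested complex I assembly factors, which build the complex without staying in it, 0 passed in edgeR, 13 were above 0 and the median log2 fold change was 0.06. Ecsit had the smallest p (0.36, SE 0.17, edgeR adjusted p = 0.393), and Ndufaf1 followed (0.20, adjusted p = 0.612). With sex as a covariate Ecsit alone of the 17 passed (0.40, edgeR adjusted p = 0.0444), against 4.62% of all tested genes called higher. The median length of these genes was 1450 bases, between 572 bases for the subunits and 2764 bases over all tested genes. With the length offset their median log2 fold change was -0.009, beside 0.17 for the subunits. The part of length in the difference between the lists was not tested.

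Of 40 tested nuclear subunits of complexes II to V, 0 passed, 38 were above 0 and the median was 0.37. Atp5h, a subunit of the ATP synthase, had 966 and 1292 CPM in WT and 1562, 1493 and 1995 CPM in db/db (0.58, edgeR adjusted p = 0.241). Atp5g3, of the membrane ring of the same enzyme, had a log2 fold change of 0.53 (edgeR adjusted p = 0.271). Their median length was 617 bases. With sex as a covariate 23 of 40 were called higher, against 4.62% of all tested genes. With the length offset the median was 0.11 and 0 passed. Complex I and the other complexes thus had similar medians in these fits, and the difference between the lists was not tested.

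Of 14 regulators of mitochondrial gene expression, such as Ppargc1a, Esrra, Nrf1 and Tfam, 0 passed and the median was 0.09, with Gabpa (-0.36, edgeR adjusted p = 0.422) and Gabpb1 (-0.34, edgeR adjusted p = 0.440) at the smallest p. Families of short genes outside the respiratory chain had values of the same sign. The 78 mitochondrial ribosomal proteins had a median of 0.20 (70 above 0, 0 called), and the 74 tested cytosolic ribosomal proteins had one of 0.35 (74 above 0, 0 called). With sex as a covariate 16 of 78 and 37 of 74 were called higher, against 4.62% of all tested genes. With the length offset these medians were 0.05 and 0.07, beside 0.17 for complex I, and without the 2 libraries at the ends they were 0.04 and 0.02, beside 0.11.

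Cell type markers were read beside these values. The summed level of 11 ventricular cardiomyocyte markers was 112756 and 126353 CPM in WT and 137445 to 166754 CPM in db/db, without overlap, and 8 of 11 had a log2 fold change above 0, with 0 called (5 of 11 called higher with sex as a covariate). Troponin T (Tnnt2, 0.62, edgeR adjusted p = 0.199) and myoglobin (Mb, 0.47, edgeR adjusted p = 0.378) had the smallest p. The genes below 0 were Atp2a2 (-0.25), Pln (-0.13) and Actc1 (-0.04). The part of cardiomyocyte content in the complex I values was not tested. All 5 white adipocyte markers had at most 15 counts in any library. Plin1 was at 0 in both WT libraries and the sum of the list was 0.218 to 0.876 CPM in WT and 1.33 to 2.43 CPM in db/db. Summed endothelial (1291 and 1608 CPM in WT, 1198 to 1495 in db/db), fibroblast (975 and 1124, 903 to 1278), macrophage (195 and 227, 216 to 228) and red blood cell markers (2538 and 7217, 5030 to 6305) overlapped between the groups. Those of brown adipocytes (58.0 and 69.5, 69.5 to 99.5) and skeletal muscle (5.55 and 8.61, 3.14 to 17.1) did too. Atrial cardiomyocyte (405 and 503, 246 to 364), mural (1042 and 992, 898 to 973) and lymphocyte markers (5.84 and 7.09, 1.47 to 5.26) had lower sums in db/db without overlap, and 0 of their genes were called in the edgeR fit of genotype alone. Single genes made up the largest part of the first 2 sums. Nppa, most of the atrial sum, had a log2 fold change of -0.58 (edgeR adjusted p = 0.199) and passed as lower with the offset (adjusted p = 0.00814) and when sex was added to the model (adjusted p = 0.0184), whereas Myl4 was at 0.21 and Sln had 0 counts in all libraries but the db/db male, with 12. Rgs5, the largest part of the mural sum, was at -0.21, and the median of the 7 mural genes was -0.20. The 2 mural genes above 0 were Tagln (0.61) and Myh11 (0.67). Myh11 passed as higher with sex as a covariate (edgeR adjusted p = 0.0355). Cd3e was at 0 in 2 libraries. The part of these cells in the complex I values was not tested.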

How the data were processed

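Poly-A selected heart RNA was measured in 5 libraries. Per the submitters' processing notes, HISAT, Bowtie2 and DESeq2 were used (versions and roles are not given) with the build GRCm38.p6. Per the file headers, the authors deposited estimated counts, FPKM and TPM values per gene and sample, with a comparison of db/db with WT. These deposited estimated (expected) counts are unnormalized, and 91.4% are exactly whole. The sources used here do not give the counting program. The deposited FPKM and TPM values are scaled by the authors to library size and gene length. The authors' p-values, q-values and log2 fold changes were copied.

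After 2 lines that named no gene were dropped, 17228 genes remained. Counts were rounded, filtered with filterByExpr, scaled with TMM and tested with edgeR 4.0.16 (robust quasi-likelihood F test, R 4.3.3) with Benjamini-Hochberg adjustment over 12540 genes. Genes under an adjusted p of 0.05 were called. Genotype was the only term of the main model, sex was added to it for the male against female contrast, and the interaction was then added to both. Log2 CPM used a prior count of 2. The libraries held 8356099 to 10381326 counts, and intervals cover counting error only. Gene length was that implied by counts and FPKM. The offset was a loess fit (span 0.3) of each library's log2 deviations on length and on GC content of the longest GENCODE M21 transcript. Alternatives were DESeq2 1.42.0, limma-voom and limma 3.58.1 on log2(TPM + 1), log2(TPM + 0.1) and log2(FPKM + 1), other scalings and filters, covariates and left-out libraries. The tests were tried on simulated counts. Replicates of a group differed beyond sampling noise (chi-square of 7.26 to 20.2 per degree of freedom).

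The genes and lists were chosen with earlier results of these data known. Named with values are the 6 members with the smallest p for genotype, the 3 highest and 3 lowest by log2 fold change and by TPM, the core subunits, Ndufa4, 3 members for sex and 2 for the interaction, and up to 2 genes per other list. 1 core subunit stays in all counts and medians, but its values are not reported here. Promoter windows are from RefSeq. The main model did not use the title numbers of the samples as pairs, and the labels do not say that they mark pairs.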

Additional observations from a re-analysis of the deposited data

How the results depend on the processing

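For db/db against WT, 0 of 37 genes were called in edgeR. The count was 1 with low counts kept, 1 with DESeq2, 24 with sex in the model, 27 in females alone, 2 with the length and GC offset plus sex, and 1 when Ndufa11 was also given its GENCODE length, a setting chosen after seeing the data. It was 0 with the other settings and 0 to 0 without each library in turn. The numbers in the sample titles mark no shared litter or day in the labels, and deviations of same-numbered libraries correlated at -0.18 to 0.10. With 2 WT libraries the deviations of WT mirror each other. The other pairs thus have the same values with the sign turned, and the correlations cannot decide whether the numbers mark pairs. With the title numbers as a replicate block, 0 of 37 genes were called (80 of all genes, against 129), with a median of 0.43.

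The median log2 fold change, 0.42, was 0.17 with the offset, 0.19 with the offset and sex, 0.13 on either TPM scale, 0.11 without the WT female and db/db male together, and 0.25 (without the WT female) to 0.63 (without the WT male) without each library. Giving Ndufa11 its GENCODE length left 0.17 and 0.19. For male against female, 13 genes were called (1.40% of all genes). The count was 21 with DESeq2 (2.45%) and 1 with library totals (0.319%). It was 0 with the offset, with no genotype term, and with limma on TPM + 1, TPM + 0.1 and FPKM + 1 (0.0399% to 0.263% of all genes). Without each library the count was 1 to 16. The upper end of this range came from the fits that left a single WT library, so no conclusion is drawn from it. With both WT libraries and both males kept, the count was 4 without db/db female 1 and 1 without db/db female 2. The interaction count was 0 in every setting run.

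Over all settings 12 of 37 signs turned, with at most 8 in 1 setting (offset and sex). Among the genes named for genotype 5 turned. Ndufc2 was -0.16 with library totals, -0.22 with the offset, -0.28 on both TPM scales, -0.18 on FPKM, -0.0069 with sex, -0.30 with offset and sex, and -0.077 to 0.092 without each library. Ndufs3 was -0.020 with the offset (-0.021 with the GENCODE length), -0.086 on TPM and -0.063 with offset and sex (-0.064). Ndufa10 was -0.11 on TPM, -0.0092 on FPKM and -0.030 with offset and sex. Ndufb6 was -0.026 on TPM and -0.0063 with offset and sex. Ndufv1 was -0.012 on TPM. The other 7 genes were Ndufa7, Ndufa12, Ndufb4 and Ndufb10 with an offset, the first pair also on TPM, and Ndufa1, Ndufa7, Ndufb2 and Ndufs6 without both libraries. The cause was not tested. With 2 WT libraries, 1 library can move a value much, as the medians without each WT library show. Each gene had at least 1616 counts in every library, and the part of depth was not tested.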
